A study of Drosophila melanogaster with 11 samples.

Results

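The 10 genes described here carry out or set the threshold for apoptosis in *Drosophila*. They were chosen by symbol, by mapping the FlyBase identifiers of the deposited count table to a list of death inducers, an inhibitor, caspases and regulators, and are 10 of the 17771 genes in the table. The inducers are *hid*, *rpr* and *skl*, the inhibitor is *Diap1*, the caspases are *Dronc*, *Drice* and *Dcp-1*, and the regulators are *Dark*, *p53* and *egr*. Of the 10 genes, 9 had enough counts to be tested, and *skl* did not pass the filter on low counts.

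Fly cells hold their caspases, the proteases that dismantle a dying cell, as inactive precursors. *Diap1* encodes a ubiquitin ligase that binds caspases and keeps them inactive, and the small proteins encoded by *hid*, *rpr* and *skl* trigger death by binding Diap1 and displacing it. The freed initiator caspase Dronc assembles with the adaptor Dark, the fly homolog of Apaf-1, and then cleaves the effector caspases Drice and Dcp-1. p53 is a DNA damage response factor that activates transcription of *rpr*, *skl* and *hid*, and *egr* encodes Eiger, the tumor necrosis factor ligand that signals through the Jun kinase pathway.

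Newly made RNA was measured by neuRNA-seq, in which cells take up 5-ethynyl uridine (EU) and the RNA that incorporated it is captured and sequenced. The cells were Kc167, a female line derived from the *Drosophila* embryo, which took up EU at 0.2 mM during 1 h, 5 days after electroporation. Knockdown cells received 20 µg of dsRNA against *M1BP*, which encodes the zinc finger protein that binds the core promoter element Motif 1, 12 µg against *Cp190*, which encodes an insulator protein, or 5 µg against the isoform Mod(mdg4)67.2, another insulator protein. Mock cells were electroporated without RNA. The libraries used were 4 of mock cells, 2 of *M1BP* knockdown (replicates 2 and 3), 2 of *mod(mdg4)* knockdown (replicates 1 and 2) and 1 labeled *Cp190* knockdown (replicate 1). All come from 1 cell line, and no control dsRNA was used in the libraries analyzed, so that the effect of a dsRNA as such and the effect of losing its target cannot be told apart.

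Total counts were 24944604 to 29680851 in mock libraries and 7462623 to 13181160 in the knockdown libraries, so that 3 counts correspond to 0.101 to 0.402 CPM (counts scaled to library size, and for every value below also by TMM, which corrects for differences in library composition). *M1BP* itself fell from 49.5 ± 5.55 CPM (SD, n = 4) in mock cells to 26.7 ± 7.27 CPM (SD, n = 2) after its knockdown (log2 fold change -0.86, standard error 0.20, edgeR adjusted p = 0.0145). Against mock replicates 1 and 2 alone it missed the threshold (-0.70, adjusted p = 0.0934). *Cp190* was at 4373 CPM in the library labeled *Cp190* knockdown and at 405 ± 56.3 CPM (SD, n = 4) in mock cells, so its RNA was not lower there. The cause of this high value was not tested, and the library is therefore named by its label. *mod(mdg4)* was not analyzed here, so the label of its knockdown was not checked. Of 11 hemocyte markers 7 were at 1 CPM or more in mock cells, while the markers *NimC1*, *He*, *eater* and *Sr-CI* were below 1 CPM. The summed hemocyte markers ranged from 4332 to 6442 CPM in mock cells, 3867 to 4411 CPM after *M1BP* knockdown, 3209 to 4927 CPM after *mod(mdg4)* knockdown and 3352 CPM in the library labeled *Cp190* knockdown. Most of this sum was *srp* (3458 to 5648 CPM in mock cells), and the single markers went both ways after *M1BP* knockdown. By edgeR's test 4 of 11 rose (*Hml*, *Pxn*, *Ppn* and *Sr-CI*) and 3 fell (*Col4a1*, *vkg* and *crq*). Of all genes tested, 16.5% rose and 11.5% fell. The part of the markers in the changes of the apoptosis genes was not tested. Mock replicates 1 and 2 differed from replicates 3 and 4: their ranges were separate for 66.7% of 9511 genes, and for all 10 apoptosis genes. The labels name no batch for these pairs. The paper's methods describe more than 1 independent neuRNA-seq experiment, each normalized separately. The labels do not tie the mock libraries to these experiments, and all 4 were pooled here.

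Because M1BP is known for binding Motif 1, the matches to this motif that the study lists within 1000 bases of gene starts were looked up for the apoptosis genes. Of the listed matches 1999 were available and 4309 were not used, so a gene without a match here may have one. Among the 10 genes, *Diap1* and *Dark* had a match, and 10.2% of all genes in the table had at least 1. Both matches fit 12 of the 15 letters of the motif and lie in the direction of the gene. The match of *Dark* lies 12 bases upstream of the annotated gene start and is not printed. The match of *Diap1* (chromosome 3L, minus strand) lies 554 bases inside the gene, in an exon and 5′ untranslated region of 2 of its 6 annotated transcripts. It is shown with the letters that fit the motif in capitals, beside the matches at *AIF*, which encodes a mitochondrial death factor (14 of 15 letters), and at *drpr*, which encodes the engulfment receptor Draper (12 of 15 letters each), to show how the match inside *Diap1* departs from the motif.
Diap1: GATACGtTatCACTG
AIF: GCgACGGTCACACTG
drpr, inside the gene: aAagCGGTCACACTG
drpr, upstream: GCTAgGGcCACACTa
The matches of *AIF* and *drpr* lie 5 and 9 bases inside the gene start, and the second match of *drpr* lies 26 bases upstream of it. The match of *Diap1* differs from the motif within the central part that the first matches of *AIF* and *drpr* both keep. It is not alone in this. The second match of *drpr* also differs there, as does a match 764 bases upstream of the DNA fragmentation gene *Drep4* (12 of 15 letters). A match is a description of the letters and does not show that M1BP was bound.

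In mock cells, 9 of the 10 genes were transcribed at readily measured levels and *skl* was close to the detection limit. Levels are given as CPM per kb of gene, introns included, because nascent reads were counted over whole genes. The DNA damage factor *p53* (26.8 ± 3.45 CPM per kb, SD, n = 4) and the effector caspase *Drice* (26.0 ± 4.64) were at the top of the order. The initiator caspase *Dronc* (19.8 ± 2.36), the inhibitor *Diap1* (19.6 ± 2.55) and the effector caspase *Dcp-1* (19.1 ± 4.76) followed. The inducer *hid* (13.1 ± 0.261) and the adaptor *Dark* (12.3 ± 0.863) came next, and the ligand *egr* (5.77 ± 0.344) and the inducer *rpr* (4.36 ± 0.775) were lower. The inducer *skl* had 0.0747 ± 0.0688 CPM per kb, from 6, 3, 0 and 2 counts in mock replicates 1 to 4. The ranges over the mock libraries overlapped between all neighbors in this order except *Dcp-1* and *hid*, *Dark* and *egr*, *egr* and *rpr*, and *rpr* and *skl*. Among the 3 inducers, *hid* was thus the one transcribed at a level close to that of *Dark*.

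**Figure D1:**
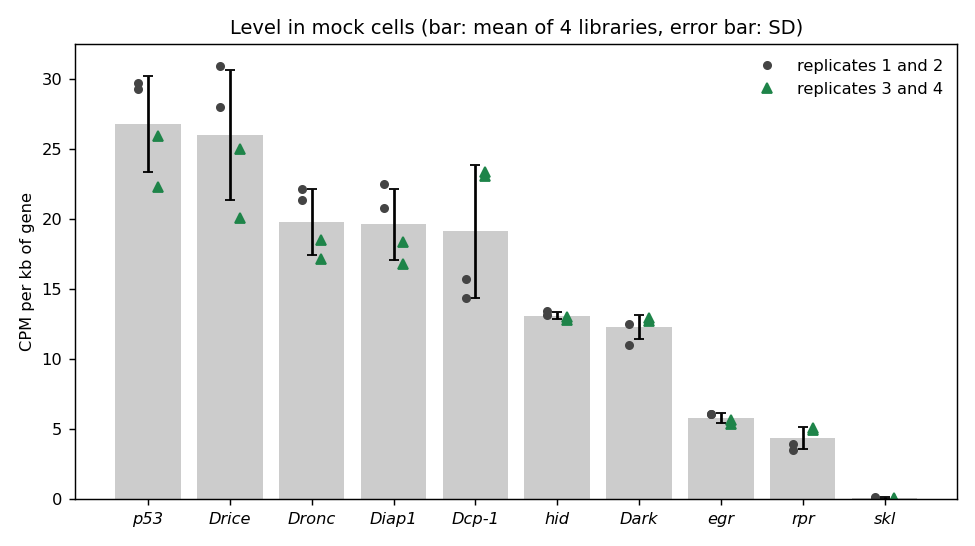
Level of each apoptosis gene in mock cells, in CPM per kb of gene, in order of the mean. Bars are means of 4 libraries with SD as error bars, dots are replicates 1 and 2 and triangles replicates 3 and 4; the 2 pairs of replicates lie apart, with *Dcp-1* and *rpr* higher in replicates 3 and 4 and *Drice*, *p53*, *Dronc* and *Diap1* higher in replicates 1 and 2.

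The spread within mock cells followed the pairs of libraries. *Dcp-1* was at 32.1 and 35.1 CPM in mock replicates 1 and 2 and at 52.3 and 51.5 CPM in replicates 3 and 4, a ratio of 0.648 between the pair means. *Drice* went the other way, with 59.7 and 54.0 CPM in replicates 1 and 2 against 38.7 and 48.2 CPM in replicates 3 and 4, a ratio of 1.31. *hid* varied least between the pairs, with a ratio of 1.03 and a range of 228.9 to 239.9 CPM over the 4 libraries. Each comparison below was therefore also made against either pair alone.

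*M1BP* knockdown was compared with mock cells to ask which of these genes change in nascent transcription when the Motif 1 protein is depleted. *Dark* was the 1 gene of the 9 tested that rose, and 0 of 9 fell. Of all 9511 genes tested, 16.5% rose and 11.5% fell, 28.1% in all, at the same threshold (adjusted p below 0.05 in edgeR's quasi-likelihood test), so the count of 1 among 9 is not above the background. The median log2 fold change of the 9 genes was -0.11, beside -0.03 over all genes tested. These are bulk libraries, in which fewer cells of a type and less RNA per cell cannot be told apart.

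The adaptor gene *Dark* (FBgn0263864, dm6 chromosome 2R, 17020027 to 17026703, plus strand) was at 73.7, 83.4, 84.8 and 86.6 CPM in mock replicates 1 to 4 and at 125 and 220 CPM in *M1BP* knockdown replicates 2 and 3. Both knockdown libraries lay above every mock library, and replicate 3 lay far above replicate 2. The mean rose 2.1-fold, a log2 fold change of 1.10 (standard error 0.20, edgeR adjusted p = 0.00556). The size of the rise depended on replicate 3: without it the log2 fold change was 0.60 (edgeR adjusted p = 0.02), and without replicate 2 it was 1.42. *Dark* passed the threshold in 13 of 15 alternative analyses, with log2 fold changes from 0.60 to 1.42 and adjusted p-values from 3.17e-05 to 0.0542. It missed the threshold against either pair of mock libraries alone, with log2 fold changes of 1.18 (adjusted p = 0.0542) against replicates 1 and 2 and 1.03 against replicates 3 and 4. Analyses with replicate numbers as a block are not among these 15. The genes whose levels moved most like *Dark* over the 9 libraries, by the root mean square difference of centered log2 CPM among 10867 genes, were *ND-MLRQ* (0.107) and *CG3726* (0.113), on chromosomes 3L and X. The scatter of *Dark* itself around its mean was 0.50 on the same scale.

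**Figure D2:**
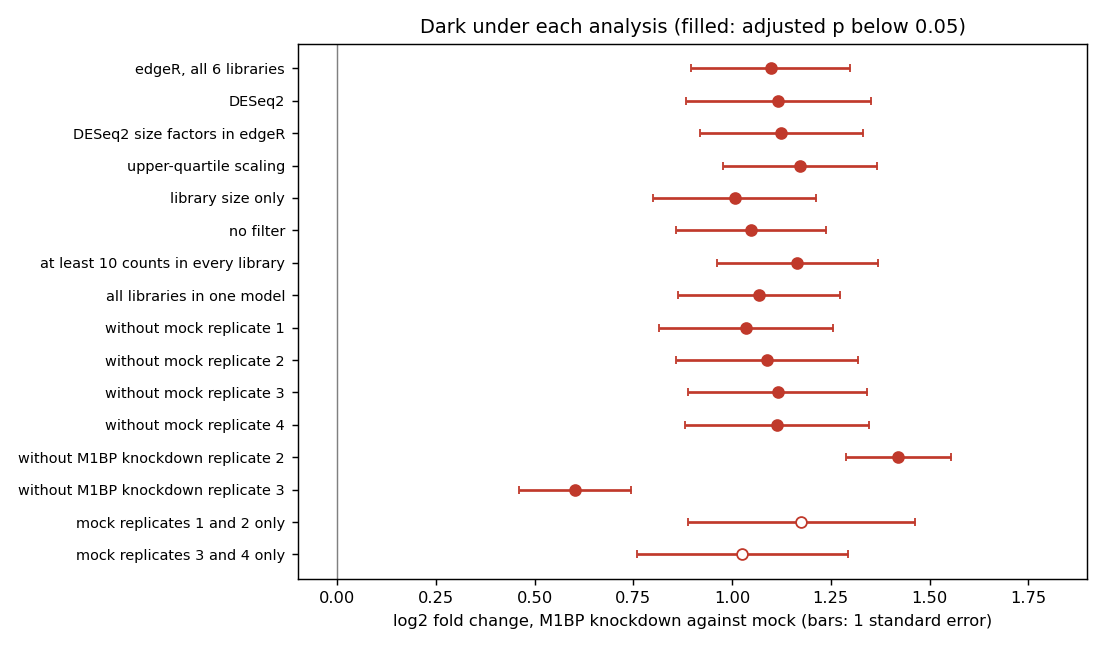
Log2 fold change of *Dark* after *M1BP* knockdown under the main edgeR analysis (top) and each alternative except the replicate blocks, with 1 standard error as bars. Filled points have an adjusted p below 0.05. The values lie between 0.60 and 1.42, all above 0, with the lowest when knockdown replicate 3 is left out, and the 2 open points are the comparisons with either pair of mock libraries.

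The 3 inducers did not pass the threshold after *M1BP* knockdown. *hid* (FBgn0003997, chromosome 3L, 18167745 to 18185641, minus strand) was at 177 and 249 CPM in the knockdown libraries and at 228.9 to 239.9 CPM in mock cells, so that 1 library lay below and 1 above the mock range. Its log2 fold change was -0.11 (standard error 0.15, edgeR adjusted p = 0.631), and it moved to -0.41 (adjusted p = 0.0485) without replicate 3 and to 0.09 without replicate 2. *rpr* (FBgn0011706, chromosome 3L, 18397535 to 18398435, minus strand) was at 3.85 and 5.57 CPM, beside 3.14, 3.56, 4.44 and 4.59 CPM in mock cells, and the groups overlapped (log2 fold change 0.28, standard error 0.31). *skl* (FBgn0036786, chromosome 3L, 18438561 to 18439942, minus strand) had 0 counts in both knockdown libraries, which at the mock level of a total of 11 counts in 4 libraries allows a ratio to mock of up to 1.86 (exact 95% interval, counting error only). A fall of *skl* after *M1BP* knockdown was not detectable at this depth, and the limit on a rise leaves out the spread between libraries.

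The inhibitor *Diap1* (FBgn0260635, chromosome 3L, 16038410 to 16051034, minus strand), at 274 and 292 CPM, overlapped with the 212 to 284 CPM of mock cells (log2 fold change 0.22, standard error 0.15, edgeR adjusted p = 0.299). The initiator caspase *Dronc* (FBgn0026404, chromosome 3L, 9968479 to 9971002, plus strand) was at 37.7 and 59.1 CPM, on both sides of its mock range of 43.3 to 55.9 CPM. Its log2 fold change of -0.019 (standard error 0.21) changed sign with the scaling and with the library left out. The effector caspase *Drice* (FBgn0019972, chromosome 3R, 29799658 to 29801584, plus strand) was at 30.5 and 51.4 CPM, a log2 fold change of -0.26 (standard error 0.24). The effector caspase *Dcp-1* (FBgn0010501, chromosome 2R, 23551313 to 23553547, plus strand) was at 41.3 and 22.3 CPM, a log2 fold change of -0.40 (standard error 0.29). Within each caspase gene, the *M1BP* knockdown libraries thus differed from each other by more than their mean differed from mock.

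*p53* (FBgn0039044, chromosome 3R, 23049657 to 23054082, minus strand) was at 101 and 106 CPM, inside the mock range of 98.8 to 132 CPM (log2 fold change -0.17, standard error 0.15, edgeR adjusted p = 0.43). *egr* (FBgn0033483, chromosome 2R, 10078366 to 10084210, plus strand) was at 25.1 and 30.9 CPM, just below the 31.3 to 35.4 CPM of mock cells. Such separation was seen below mock for 25.8% and above mock for 23.3% of all genes tested, and *egr* did not pass the threshold (log2 fold change -0.24, standard error 0.16, edgeR adjusted p = 0.302).

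**Figure D3:**
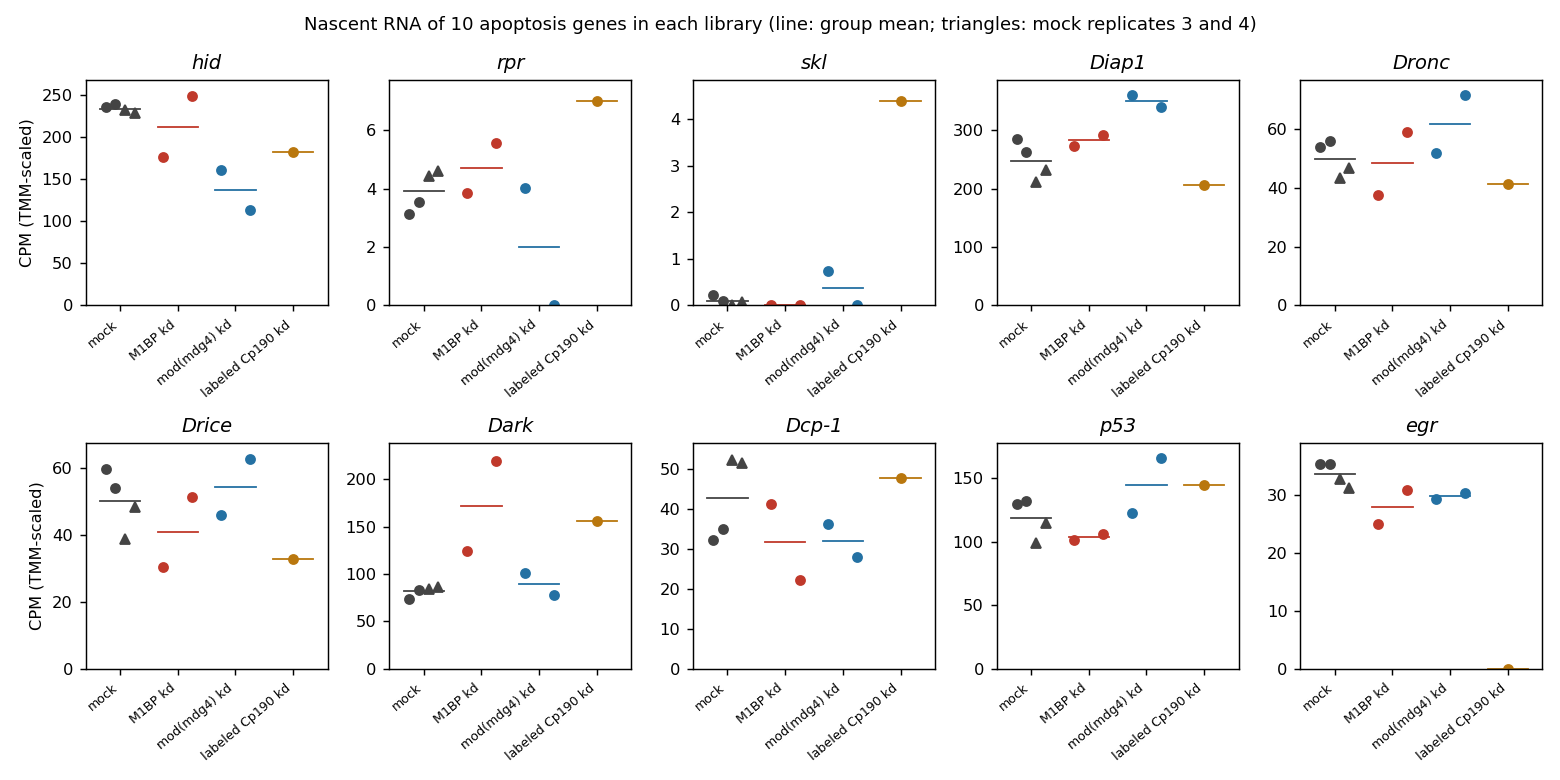
Nascent RNA of the 10 apoptosis genes in each library, in TMM-scaled CPM on axes that start at 0. Points are libraries (triangles: mock replicates 3 and 4) and lines are group means. *Dark* has its highest mean in *M1BP* knockdown (125 and 220 CPM), with the library labeled *Cp190* knockdown between the 2 (156 CPM). *hid* is lowest in *mod(mdg4)* knockdown (161 and 114 CPM), and *egr* is at 0 in the library labeled *Cp190* knockdown.

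*mod(mdg4)* knockdown addressed whether an insulator protein other than CP190 gives the same changes. Of the 9 tested genes 0 rose and 0 fell by edgeR's test, as did few genes in all, 0.32% rising and 0.408% falling of 9066, or 0.728% in all. At an unadjusted p below 0.05, 2 of the 9 genes passed (*hid*, lower, and *Diap1*, higher), beside 10.8% lower and 9.82% higher of all genes, so that these 2 are near the background. DESeq2 called the same 2 at an adjusted p below 0.05, beside 4.94% lower and 3.26% higher of the 9970 genes to which it gave an adjusted p. The median log2 fold change of the 9 genes was 0.14, beside 0.0043 over all genes tested.

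The inducer *hid* was at 161 and 114 CPM in *mod(mdg4)* knockdown replicates 1 and 2, both below the 228.9 to 239.9 CPM of mock cells. Its log2 fold change was -0.75 (standard error 0.15, edgeR unadjusted p = 0.000868, adjusted p = 0.0639). Over the alternatives the adjusted p ranged from 0.000553 with DESeq2 to 0.298 against mock replicates 3 and 4 alone, with log2 fold changes from -1.02 to -0.54. Without *mod(mdg4)* knockdown replicate 1 it passed the threshold (log2 fold change -1.02, edgeR adjusted p = 0.013). The inhibitor *Diap1* was at 361 and 340 CPM, both above the 212 to 284 CPM of mock cells. Its log2 fold change was 0.52 (standard error 0.14, edgeR unadjusted p = 0.00611, adjusted p = 0.102), and 0.51 with DESeq2 (adjusted p = 0.027). The inducer and the inhibitor that it displaces thus lay on opposite sides of mock in both libraries, and neither difference passed the main test. Of all genes tested, 13.3% had both *mod(mdg4)* knockdown libraries above every mock library and 17.7% had both below.

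The inducer *rpr* differed between the *mod(mdg4)* knockdown libraries. It was at 4.03 CPM in replicate 1 and had 0 counts in replicate 2, where 3 counts would be 0.349 CPM, so that *rpr* was at least 11.3-fold lower in that library than the mock mean. Replicate 2 was the shallowest library, and 0.797% of the 753 genes with between 3 and 10 CPM in every mock library were at 0 in it. The fitted log2 fold change of -0.88 (standard error 0.86) was not past the threshold (edgeR adjusted p = 0.612), and was 0.034 without replicate 2. *skl* had 9 counts in replicate 1 and 0 in replicate 2, together 4.23 times the mock rate (exact 95% interval 1.55 to 11.2, counting error only), with 1 library supplying every count.

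The caspase and regulator genes overlapped with mock cells, other than *egr*. *Dronc* was at 51.9 and 71.4 CPM (log2 fold change 0.33, standard error 0.18) and *Drice* at 46.1 and 62.7 CPM (0.14, standard error 0.21). *Dcp-1* was at 36.2 and 27.9 CPM (log2 fold change -0.39, standard error 0.25), *p53* at 123 and 166 CPM (0.31, standard error 0.18) and *Dark* at 102 and 78.0 CPM (0.15, standard error 0.14). *egr* was at 29.2 and 30.4 CPM, below its mock range, with a log2 fold change of -0.15 (standard error 0.14, edgeR adjusted p = 0.591). Adjusted p-values of these genes were 0.355 to 0.755.

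**Figure D4:**
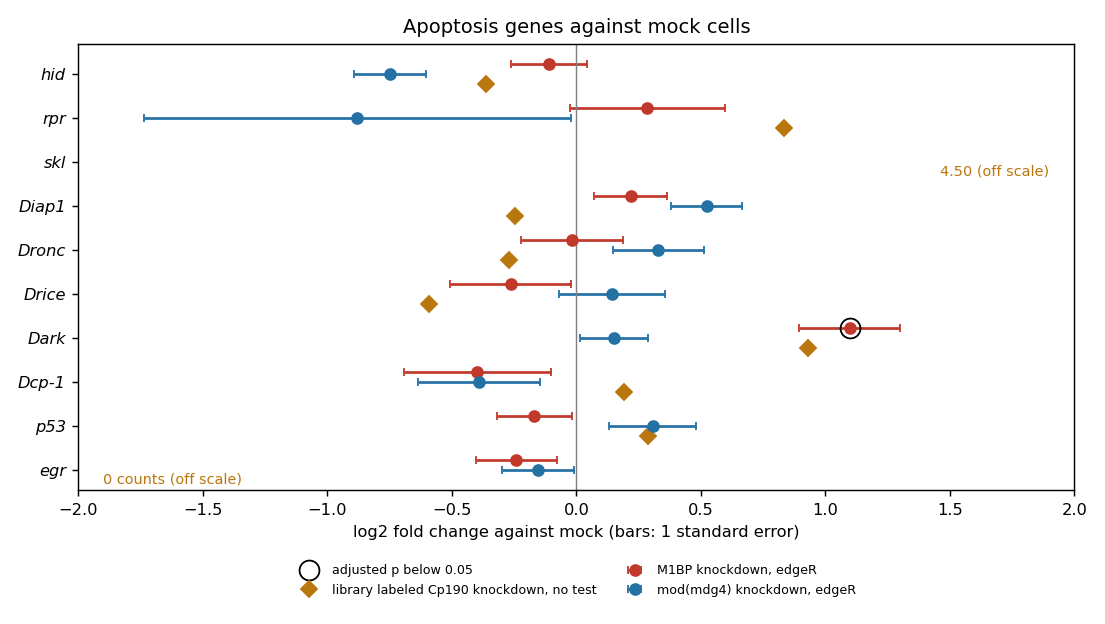
Log2 fold change against mock for each apoptosis gene, with 1 standard error as bars: *M1BP* knockdown in red and *mod(mdg4)* knockdown in blue (edgeR), and the log2 ratio of the single library labeled *Cp190* knockdown as diamonds with no error. The circled point, *Dark* at 1.10 after *M1BP* knockdown, is the 1 value past the threshold; *skl* (4.50) and *egr* (0 counts) of the labeled library lie off the scale.

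The *M1BP* and *mod(mdg4)* knockdowns were compared directly because both were set against the same mock libraries. *Dark* was the 1 gene of 9 that was higher after *M1BP* knockdown, and 0 were lower, against a background of 10.2% higher and 7.7% lower of 9598 genes, 17.9% in all. Its 125 and 220 CPM after *M1BP* knockdown lay above its 102 and 78.0 CPM after *mod(mdg4)* knockdown, a log2 difference of 0.96 (standard error 0.25, edgeR adjusted p = 0.0251). The difference did not pass the threshold without *M1BP* knockdown replicate 3 (0.47, adjusted p = 0.145) or without *mod(mdg4)* knockdown replicate 2 (0.76, adjusted p = 0.118). *hid* also lay higher in both *M1BP* knockdown libraries (177 and 249 CPM against 161 and 114 CPM), with a log2 difference of 0.65 (standard error 0.21, edgeR adjusted p = 0.0536). It passed in 6 of 15 alternatives, among them DESeq2 (0.72, adjusted p = 0.0117). *p53* (101 and 106 against 123 and 166 CPM) and *Diap1* (274 and 292 against 361 and 340 CPM) lay lower in both *M1BP* knockdown libraries, with log2 differences of -0.46 (standard error 0.20, edgeR adjusted p = 0.132) and -0.29 (standard error 0.18, adjusted p = 0.272). All *M1BP* knockdown libraries were above all *mod(mdg4)* knockdown libraries for 25.8% of genes tested and below for 26.2%. The differences of the other tested members were between -0.39 and 1.18 with adjusted p-values from 0.371 to 0.996.

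In the library labeled *Cp190* knockdown, values carry no test, and they describe 1 library in which the targeted gene was higher than in mock cells. Of the 10 genes, *skl* alone lay above every mock library and 2-fold or more over the mock mean, and *egr* alone lay below by the same limits, which makes 1 gene in each direction. The count of higher genes was 2 with DESeq2's size factors, where *Dark* joined (log2 ratio 1.08), and 3 with upper-quartile scaling, with *Dark* (1.13) and *rpr* (1.03). The same limits were passed by 24.9% of 10180 genes in the higher and 20.7% in the lower direction. These genes passed a filter on low counts that 1 library is enough to meet. *skl* (0 to 0.230 CPM in mock cells, 4.40 CPM here) was kept through its level in this library alone. The shares are taken over genes kept by the same filter. Without the 2-fold limit, 4 of the 10 genes were above and 5 below the mock range, beside 38.9% and 45.4% of all genes, and *Dcp-1* (47.6 CPM) was the gene inside it. The library thus lay outside the mock range for most of the genes compared.

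The ligand gene *egr* had 0 counts in this library and 924, 1023, 895 and 783 counts in mock replicates 1 to 4. With a floor of 3 counts in that library, which is 0.314 CPM, *egr* was at least 107-fold lower than in mock cells. No other library was near 0, since *egr* had 306 and 333 counts after *M1BP* knockdown and 356 and 261 after *mod(mdg4)* knockdown. Zero counts in well transcribed genes occurred only in this library: of 5514 genes with at least 10 CPM in every mock library, 14 (0.254%) were at 0 in it and 0 in each other library. Among the 753 genes with 3 to 10 CPM in every mock library, 12.6% were at 0 in it, beside 0 to 0.797% in the others. Among the other pathway genes, *HtrA2*, which encodes a mitochondrial protease, was also at 0 in this library and at 9.95 to 12.3 CPM in mock cells. Whether library complexity plays a part in the 0 of *egr* was not tested.

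The inducers *skl* and *rpr* were higher in the same library. *skl* had 42 counts, beside 11 in the 4 much deeper mock libraries together, a ratio of 42.9 (exact 95% interval 21.7 to 92.4, counting error only). *rpr* was at 7.01 CPM, above the 3.14 to 4.59 CPM of mock cells, a ratio of 1.79 (1.36 to 2.32). *grim*, the remaining inducer of this gene cluster, had 8 counts there and 3 in all mock libraries, a ratio of 30.0 (7.19 to 175). *hid*, in contrast, was below the mock range (182 CPM, log2 ratio -0.36). Markers of other cell types were in part higher in the same library. Summed fat body markers, with 0 of 5 at 1 CPM or more in mock cells, were at 7.96 CPM, against 0.439 to 0.917 CPM in mock cells, 0.835 to 4.01 CPM after *M1BP* knockdown and 0.739 to 1.74 CPM after *mod(mdg4)* knockdown. In the labeled library this sum came from *apolpp* (5.03 CPM) and *Fbp1* (2.93 CPM), with *Lsp1alpha*, *Lsp2* and *Yp1* at 0. Summed muscle markers, with 2 of 5 at 1 CPM or more and *Mlc2*, *Act88F* and *up* below, were at 49.6 CPM, against 17.2 to 20.8, 17.3 to 27.5 and 23.3 to 29.9 CPM. Most of the 49.6 CPM was *sls* (39.1 CPM, against 12.9 to 17.3 CPM in mock cells), and *up* was at 0 in the labeled library. Summed neuron markers, at 601 CPM, lay inside their mock range of 483 to 643 CPM, and summed germline markers were at 33.4 CPM against 27.1 to 30.0 CPM in mock cells. Their part in the values of *skl*, *rpr* and *grim* was not tested. The intervals of these genes do not cover the zeros of this library, where 12.6% of genes with 3 to 10 CPM in every mock library were at 0. The part of library complexity in these ratios was not tested.

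*Dark* was at 156 CPM in this library, between its values in the *M1BP* knockdown libraries, with a log2 ratio to mock of 0.93. *p53* (144 CPM, log2 ratio 0.29) was also above the mock range. *Diap1* (207 CPM, log2 ratio -0.25), *Dronc* (41.1 CPM, -0.27) and *Drice* (32.8 CPM, -0.59) were below their mock ranges, and the values of *Diap1* and *Dronc* lay within 5 CPM of the lowest mock library.

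The 3 inducers lie on the minus strand of chromosome 3L within an interval of 272 kb, 18167745 to 18439942, in the order *hid*, *grim*, *rpr* and *skl*. The gaps between them are 117 kb, 93.1 kb and 40.1 kb. The interval holds 17 annotated genes, and *hid* supplied nearly all of its counts. In mock cells *hid* had 5731 to 6940 counts, *rpr* 82 to 121, *skl* 0 to 6 and *grim* 0 to 2. *lncRNA:CR45936*, in the gap between *hid* and *grim*, had 16 to 32 counts in mock cells, 16 and 2 after *M1BP* knockdown and 0 in the other knockdown libraries. The neighboring inducers thus differed in level by more than the spread of the mock libraries, and in the library labeled *Cp190* knockdown *hid* lay below and *rpr*, *skl* and *grim* above mock. None of the 10 apoptosis genes overlaps a gene on its own strand. *Diap1*, *Dark*, *Dcp-1*, *p53* and *egr* overlap genes on the other strand, and counting used the strand.

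The other genes of the pathway were taken from 8 lists of 46 genes, 45 of them in the table and 39 tested. After *M1BP* knockdown 5 of 39 rose and 2 fell, with a median log2 fold change of -0.042, beside the background of 16.5% rising and 11.5% falling given above. After *mod(mdg4)* knockdown 0 of 39 rose and 0 fell, with a median of 0.0035. Of 40 genes compared in the library labeled *Cp190* knockdown, 5 lay above and 9 below the mock range by a factor of 2 or more, beside the 24.9% and 20.7% of all genes compared.

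The genes that rose after *M1BP* knockdown came from several branches. *dnr1*, which encodes a ubiquitin ligase that restrains Dronc, rose from 26.9 to 34.6 CPM in mock cells to 62.5 and 98.3 CPM. Its log2 fold change of 1.37 (standard error 0.20, edgeR adjusted p = 0.00191) passed in 15 of 15 alternatives, and *dnr1* was at 80.8 CPM in the library labeled *Cp190* knockdown. *Corp*, known as a negative regulator of p53 and listed with the inducers because p53 activates it, rose from 0.15 to 0.83 CPM in mock cells to 2.62 and 4.55 CPM (log2 fold change 3.03, adjusted p = 0.00907). *Buffy*, a Bcl-2 family gene, rose from 0.31 to 0.84 CPM to 2.21 and 2.23 CPM (2.04, adjusted p = 0.0217), and both are low in absolute terms. In the TNF and Jun kinase branch 2 of 10 tested genes rose. These were *Traf4*, an adaptor of that pathway (log2 fold change 0.89, adjusted p = 0.0112), and *puc*, the phosphatase that feeds back on Jun kinase (0.57, adjusted p = 0.0331). The calls depended on single libraries: without knockdown replicate 3, *Traf4* (0.48, adjusted p = 0.0752) and *puc* (0.22, adjusted p = 0.229) missed the threshold. *puc* also missed it without any 1 of the mock libraries (adjusted p = 0.0569 to 0.085), and *Buffy* without mock replicate 1 or 2 (1.84 and 1.94, adjusted p = 0.0612 and 0.0666). Against mock replicates 1 and 2 alone, *Corp* (2.46, adjusted p = 0.057), *Traf4* (0.75, adjusted p = 0.0933), *Buffy* (2.57, adjusted p = 0.0551) and *puc* (0.60, adjusted p = 0.118) missed the threshold. Against replicates 3 and 4 alone, *Buffy* (1.65, adjusted p = 0.126) and *puc* (0.54, adjusted p = 0.132) did. With replicate numbers as a block, over replicates 2 and 3 of both groups, more calls were lost. *Corp* (3.16, edgeR adjusted p = 0.0856), *Traf4* (0.89, adjusted p = 0.103), *Buffy* (2.13, adjusted p = 0.37) and *puc* (0.55, adjusted p = 0.453) missed the threshold. In one model of all libraries, *Buffy* (2.01, adjusted p = 0.0782) and *puc* (0.54, adjusted p = 0.0696) missed it.

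The genes that fell after *M1BP* knockdown were *Strica*, an initiator-type caspase, and *crq*, the engulfment receptor Croquemort. *Strica* went from 53.8 to 63.5 CPM in mock cells to 42.4 and 32.4 CPM (log2 fold change -0.62, standard error 0.16, edgeR adjusted p = 0.0223), and *crq* from 40.3 to 47.9 CPM to 30.1 and 21.9 CPM (-0.71, standard error 0.18, adjusted p = 0.0196). Both missed the threshold without knockdown replicate 3 (*Strica* -0.47, adjusted p = 0.0683, and *crq* -0.53, adjusted p = 0.0609) and without mock replicate 4 (-0.64, adjusted p = 0.0588, and -0.67, adjusted p = 0.0624), and *Strica* also without mock replicate 1 (-0.62, adjusted p = 0.0522). Against mock replicates 1 and 2 alone both missed it (*Strica* -0.57, adjusted p = 0.0928, and *crq* -0.60, adjusted p = 0.0951), as did *Strica* against replicates 3 and 4 (-0.67, adjusted p = 0.0643). With the replicate block both missed it too (*Strica* -0.63, edgeR adjusted p = 0.347, and *crq* -0.71, adjusted p = 0.299). *Strica* also missed it in one model of all libraries (-0.65, adjusted p = 0.0718). *crq* is one of the hemocyte markers too, whose summed level is given above, and the part of that level in its change was not tested. None of the 3 other inhibitors of apoptosis and none of the 4 genes listed for the p53 and DNA damage branch, a list without *Corp*, passed the threshold.

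Compared directly, 5 of the 39 other pathway genes were higher after *M1BP* than after *mod(mdg4)* knockdown and 4 were lower, beside the background of 10.2% and 7.7%. The higher genes were *dnr1* (log2 difference 1.5, edgeR adjusted p = 0.00247), the ubiquitin-conjugating enzyme gene *eff* (1.46, adjusted p = 0.00422), *Traf4* (1.15, adjusted p = 0.00805), the kinase adaptor gene *Tab2* (0.70, adjusted p = 0.0214) and *kay*, the fly Fos (0.56, adjusted p = 0.0388). *eff* was at 2893 and 2042 CPM after *M1BP* knockdown, at 1054 and 762 CPM after *mod(mdg4)* knockdown and at 1410 to 2190 CPM in mock cells. It lay below mock in both *mod(mdg4)* libraries, as did 17.7% of all genes tested. The lower genes were *Det*, which encodes the survivin-like protein Deterin (-1.37, adjusted p = 0.0135), *crq* (-1.26, adjusted p = 0.00476), *lok*, the fly Chk2 kinase upstream of p53 (-0.83, adjusted p = 0.0112), and the engulfment gene *Ced-12* (-0.75, adjusted p = 0.0244). *lok* was at 27.2 and 28.9 CPM after *M1BP* knockdown, 36.7 to 38.2 CPM in mock cells and 51.4 and 49.1 CPM after *mod(mdg4)* knockdown, with no overlap among the 3 groups. Taken singly, such separations were common. *M1BP* knockdown lay below *mod(mdg4)* knockdown for 26.2% and below mock for 25.8% of genes tested. *mod(mdg4)* knockdown lay above mock for 13.3%. *dnr1*, *eff*, *Traf4*, *crq* and *lok* passed in 15 of 15 alternatives. Leaving out 1 library ended the call of *Tab2* (*M1BP* knockdown replicate 2, 0.67, adjusted p = 0.0515, or *mod(mdg4)* knockdown replicate 2, 0.50, adjusted p = 0.101), *Det* (*M1BP* knockdown replicate 3, -1.25, adjusted p = 0.051) and *Ced-12* (*M1BP* knockdown replicate 3, -0.69, adjusted p = 0.0761, or *mod(mdg4)* knockdown replicate 1, -0.62, adjusted p = 0.0841). *kay* lost its call without any of mock replicates 1, 2 and 4, *M1BP* knockdown replicate 3 and either *mod(mdg4)* knockdown library, with log2 differences of 0.46 to 0.60 and adjusted p-values of 0.056 to 0.106.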

How the data were processed

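neuRNA-seq libraries gave single-end reads of 50 bp. As the submitters' processing notes and the paper's methods state, the authors used cutadapt 2.7 for trimming, aligned reads to dm6 with HISAT2 2.1.0 and counted them over whole genes by strand with featureCounts 1.6.4. The authors deposited raw counts per gene, not normalized. Of 11 labeled libraries 9 were used. The remaining 2 columns of the table share 1 header, *Cp190* knockdown replicate 2, but hold different values, and no column is headed *M1BP* knockdown replicate 1, so neither was used.

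Counts were analyzed in R 4.3.3 with edgeR 4.0.16 (TMM scaling, its default filter on low counts, quasi-likelihood test, p-values adjusted by Benjamini-Hochberg over all genes tested), using all 4 mock libraries and no covariate. For the library labeled *Cp190* knockdown, log2 ratios used a prior of 2 counts. Standard errors were derived from the log2 fold change and its F statistic. The paper's reporting summary calls the RNA-seq replicates biological, and the labels number them without naming cultures, so p-values measure the spread between these libraries. Intervals and floors of 3 counts cover counting error only. Motif 1 matches are those of the study's supplementary table in windows centered on gene starts in the count table.

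The apoptosis genes and the other lists were chosen with earlier results of these data known. Every apoptosis gene is named, as is every gene of the other lists past the threshold, the targeted genes, and the 2 genes nearest to a called apoptosis gene. Alternatives were DESeq2 1.42.0 without the filter, scaling by DESeq2's size factors, by upper quartiles or by library size, no filter or a minimum of 10 counts in every library, one model of all libraries, either pair of mock libraries, each library left out, and a replicate block. Counts and ranges over alternatives leave out the replicate block and the crossed block. The crossed block was chosen after seeing the data. The scripts were tested on simulated data. Listed genes not found in the table (*Ced-6* and *nos*) were not analyzed here.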

Additional observations from a re-analysis of the deposited data

Results flagged for a closer look

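*Dark*, the adaptor of the apoptosome, differed between the *M1BP* and *mod(mdg4)* knockdowns in a direct test, with a log2 difference of 0.96 (standard error 0.25, edgeR adjusted p = 0.0251). It was higher in both *M1BP* knockdown libraries than in both *mod(mdg4)* knockdown libraries, and the call was lost without *M1BP* knockdown replicate 3 (0.47) or *mod(mdg4)* knockdown replicate 2 (0.76).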

How the results depend on the processing

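Over all alternatives except the blocks, log2 fold changes kept their sign for 5 of 9 tested apoptosis genes after *M1BP* knockdown, 6 after *mod(mdg4)* knockdown and 7 in the direct comparison. Scaling by library size moved the median of all genes to -0.13, 0.12 and -0.24 in these 3 comparisons, and the share of called genes that were higher from 58.9% to 49.5%, from 43.9% to 64.6% and from 56.9% to 35.4%. *Dronc* after *M1BP* knockdown turned positive with DESeq2 (0.0021), DESeq2's size factors (0.0094), upper-quartile scaling (0.058), at least 10 counts (0.048), mock replicates 3 and 4 (0.12) or without mock replicate 1 (0.0086), mock replicate 2 (0.023) or knockdown replicate 2 (0.24). With each library left out it ranged from -0.41 to 0.24. *hid* (0.090) and *Drice* (0.037) turned without knockdown replicate 2 and *rpr* (-0.032) without replicate 3, in ranges of -0.41 to 0.09, -0.72 to 0.04 and -0.03 to 0.50. After *mod(mdg4)* knockdown *Dark* turned without replicate 1 (-0.052) and *rpr* without replicate 2 (0.034). *Drice* turned without replicate 2 (-0.12), against mock replicates 1 and 2 (-0.037) and with the replicate block (-0.052), which is not counted above. Their ranges with each library left out were -0.05 to 0.31 for *Dark*, -0.12 to 0.34 for *Drice* and -9.51 to 0.03 for *rpr*, where -9.51 (without replicate 1) is fitted against a library at 0, depends on the prior and is no bound. In the direct comparison *Dcp-1* turned with library size (-0.22), no filter (-0.025), one model (-0.012) and without *M1BP* replicate 2 (-0.49) or *mod(mdg4)* replicate 2 (-0.19), and *egr* with at least 10 counts (0.0052) and without *M1BP* replicate 2 (0.085), in ranges of -0.49 to 0.36 and -0.25 to 0.08 with each library left out. The cause of these changes was not tested.

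After *M1BP* knockdown 1574 genes rose and 1097 fell, and these counts were 954 higher in one model, 466 and 100 with the replicate block, 750 and 505 against mock replicates 1 and 2, 796 and 553 against replicates 3 and 4, 835 and 560 with the crossed block, and 1085 to 1790 and 582 to 1437 with each library left out. Of the apoptosis genes 0 rose against either mock pair, and 0 to 1 fell with each library left out. After *mod(mdg4)* knockdown 29 rose and 37 fell, against 325 and 493 with DESeq2, 51 higher with library size, 18 higher in one model, 61 and 80 with the replicate block, 0 and 0 against either mock pair, and 0 to 653 and 0 to 634 with each library left out. DESeq2 called 1 apoptosis gene higher and 1 lower, and 0 to 2 were lower with each library left out. In the direct comparison 975 were higher and 739 lower, against 1504 higher with DESeq2, 1505 lower with library size, and 742 to 993 and 451 to 796 with each library left out. Of the apoptosis genes 2 were higher with DESeq2, its size factors, upper-quartile scaling or at least 10 counts, and 0 to 3 with each library left out. In the library labeled *Cp190* knockdown 3 apoptosis genes were at least 2-fold higher with upper-quartile scaling and 2 with DESeq2's size factors.

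Deviations from group means of same-numbered libraries correlated across genes at -0.12 (*M1BP* and mock replicates 2 and 3, 9511 genes) and -0.030 (*mod(mdg4)* and mock replicates 1 and 2, 9066 genes). With 2 knockdown libraries, each value rests on 1 contrast per gene. It therefore cannot decide whether replicate numbers pair the libraries. With the replicate block 1 apoptosis gene rose and 0 fell after *M1BP* knockdown, and 0 rose and 0 fell after *mod(mdg4)* knockdown. The crossed block used 2 libraries a group. No block was run for the direct comparison, whose groups share 1 number. *M1BP* itself missed the threshold with the replicate block (-0.89, adjusted p = 0.139). Depth limits *skl* and *grim*, and the single library labeled *Cp190* knockdown allows no test.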
